A study of Mus musculus with 12 samples.

Results

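The 7 genes described here encode the MHC class II antigen presentation machinery of the mouse: the surface chains H2-Aa, H2-Ab1 and H2-Eb1, the invariant chain Cd74, the peptide editor subunits H2-DMa and H2-DMb1, and the transcriptional coactivator Ciita. They were chosen by symbol and make up 7 of the 24422 features of the count tables. All 7 passed the filter on low counts, as did 16713 features in all. RNA was poly-A selected and sequenced from the stromal vascular fraction (SVF) of adipose tissue of mice, the mixed stromal, vascular and immune cells left once mature adipocytes are removed.

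The 12 libraries formed 4 groups of 3. Every mouse carried 1 edited allele of p21 (Cdkn1a), a cell cycle inhibitor gene induced by stress and senescence. The p21+/mcherry control genotype was sequenced on both diets: replicates 1, 2 and 3 ate a standard diet (group SD mCherry), and replicates 15, 17 and 20 ate a high-fat diet (group HFD mCherry). In the other 2 groups, also on the high-fat diet, the genotypes are p21+/mcherry-Tert (HFD Tert, replicates 25, 26 and 27) and p21+/mcherry-TertCi (HFD TertCi, replicates 30, 31 and 33), in which the p21 promoter drives telomerase reverse transcriptase or its catalytically inactive form; values of these 2 groups are also given below as those with Tert and with TertCi. The transgene is thus expressed where p21 is, and no standard-diet group carries either form of Tert. The series design text writes the high-fat diet control as p21+/- where the sample labels name mcherry, and the labels were followed. The labels name neither age nor fat depot, and do not say whether replicates are separate animals, so each p-value measures the spread between these samples.

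Each library held between 16430330 and 19486965 counts. Tert ranged from 6.99 to 16.6 CPM (counts scaled to the size of the library) in HFD Tert, from 9.54 to 15.2 CPM in HFD TertCi and from 0.463 to 3.97 CPM in the mCherry groups. The values in the labelled transgene groups lay above those of all 6 mCherry libraries; the counts do not separate Tert from TertCi. Pdgfra, a marker of adipose progenitors, ranged from 56.7 to 232 CPM over the libraries and differed between groups, and Adipoq, a marker of mature adipocytes, reached at most 7.85 CPM. Crisp1, an epididymal secretory gene, lay at or above 641 CPM in 8 libraries and under 1 CPM in 4 (HFD TertCi 31, HFD Tert 27, SD mCherry 2 and HFD mCherry 20), 1 in each group. These 4 libraries stand apart from the 8 others, and the values of the class II genes are also given with the libraries so divided.

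MHC class II molecules are heterodimers that carry peptides from endocytosed proteins to the cell surface, where CD4 T cells read them. The invariant chain Cd74 fills the groove of newly made dimers and takes them to endosomes, cathepsins trim it, and the H2-DM dimer exchanges its last fragment for peptide. Ciita does not bind DNA itself but docks on a complex of RFX, CREB and NF-Y proteins at the X and Y boxes of class II promoters. In adipose tissue these genes are expressed by macrophages, dendritic cells and B cells, and adipose macrophages are known to accumulate in obesity.

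H2-DMa (chr17:34119541-34139101, plus strand), H2-DMb1 (chr17:34153072-34160230, plus), H2-Ab1 (chr17:34257689-34269419, plus), H2-Aa (chr17:34282744-34287823, minus) and H2-Eb1 (chr17:34305867-34316674, plus) lie in the major histocompatibility complex on chromosome 17, with H2-DMb2 between H2-DMa and H2-DMb1, and Psmb9, Tap1, Psmb8, Tap2 and H2-Ob between H2-DMb1 and H2-Ab1 (GENCODE annotation of GRCm38). Ciita (chr16:10480059-10528418, plus) and Cd74 lie outside the cluster. All 7 are annotated as protein coding. H2-DMb1 shared 22.7% of its 50-base exonic windows with its near copy H2-DMb2, so the split of reads between this pair is uncertain. Exons of H2-DMa overlapped those of Brd2 on the opposite strand over 360 bases (10.4% of its exonic length), and those of Ciita overlapped Dexi over 329 bases (3.45%). Whether counting used strand is not given in the sources used here, so reads in these overlaps cannot be assigned.

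RefSeq promoter windows (GRCm38.p6, 250 bases before to 50 after the annotated start) were matched for H2-Aa, H2-Eb1, H2-DMb1 and H2-DMa, 4 of the 7 genes. H2-Ab1, Cd74 and Ciita were not matched. The stretches below are shown because the surface chain genes kept close proportions across libraries and because they hold the letters of the X and Y box region at which Ciita is recruited. Capitals mark CTNGNAAC (X box letters) and TGATTGG (Y box letters), each written 5′ to 3′ on the strand of its gene: H2-Aa at chr17:34287859-34287915 (minus), H2-Eb1 at chr17:34305765-34305820 (plus), H2-DMb1 at chr17:34153086-34153142 (plus) and, for comparison, H2-DMb2 at chr17:34145113-34145171 (plus).
H2-Aa: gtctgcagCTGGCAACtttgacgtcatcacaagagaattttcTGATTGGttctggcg
H2-Eb1: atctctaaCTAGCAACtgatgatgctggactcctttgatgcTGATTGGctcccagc
H2-DMb1: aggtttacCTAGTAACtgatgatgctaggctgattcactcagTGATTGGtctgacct
H2-DMb2: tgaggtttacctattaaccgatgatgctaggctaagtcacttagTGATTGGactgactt

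The gap between the capitals was 26 bases in H2-Aa, 25 in H2-Eb1 and 26 in H2-DMb1, and TGATTGG began 50, 61 and 63 bases before the RefSeq start, respectively. The GENCODE spans of H2-DMb1 and H2-DMb2 start further upstream, at 34153072 and 34143307, so these 2 stretches lie inside them. Both strands were searched in 32851 windows. TGATTGG was present in 7.82% of them and CTNGNAAC in 13.2%, while CTNGNAAC followed by TGATTGG within 40 bases was present in 31 windows (0.0944%). These 2 motifs and their pairing were chosen after the sequences had been seen, so the share is a description. Of the motifs set earlier, CTGATTGG (4.1% of windows) was in H2-Aa and H2-Eb1, TAGCAAC (3.66%) in H2-Eb1 and CCNAGNAAC (5.27%) in H2-DMb1, and the core ATTGG (37.4%), which lies inside the longer Y box motifs, was in all 3. H2-DMb2 held TGATTGG without CTNGNAAC. Of the 2 windows of H2-DMa, 1 held ATTGG alone and 1 held none of the motifs.

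Per kilobase of exon, Cd74 was the most abundant member, with a mean over the 12 libraries of 750 CPM per kilobase. H2-Eb1 (251), H2-Ab1 (249) and H2-Aa (188) followed on this scale, and then H2-DMb1 (25.4), H2-DMa (8.47) and Ciita (0.556). The 3 surface chain genes thus lay within a narrow band on this scale, the editor subunits at a lower level and the coactivator at the lowest. The length used is that of all annotated exons of a gene, and the order of the surface chains depends on it. By CPM their means were 716 for H2-Aa, 640 for H2-Ab1 and 488 for H2-Eb1. HFD mCherry 17 was the highest library for all 7 genes. HFD Tert 26 was the lowest for 5 genes, and SD mCherry 3 was the lowest for H2-DMb1 and Ciita. The ratio of the highest to the lowest library ran from 3.90 for H2-DMb1 to 5.61 for H2-Eb1, and was 44.1 for Ciita.

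H2-Ab1, which encodes the beta chain of the I-A molecule, had 393, 601 and 327 CPM in SD mCherry replicates 1, 2 and 3. In HFD mCherry replicates 15, 17 and 20 it had 574, 1305 and 928 CPM. In HFD Tert replicates 25, 26 and 27 it had 351, 281 and 1028 CPM, and in HFD TertCi replicates 30, 31 and 33 it had 525, 756 and 612 CPM. HFD Tert held both the lowest library of the study and the second highest, while the HFD TertCi libraries lay close together. The group means, lowest first, were 440 ± 143 CPM in SD mCherry, 553 ± 413 in HFD Tert, 631 ± 116 in HFD TertCi and 936 ± 365 in HFD mCherry (SD, n = 3 each). Each neighbouring pair in this order overlapped.

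H2-Aa, the alpha chain that pairs with it, had 478, 651 and 348 CPM in SD mCherry and 673, 1530 and 1133 CPM in HFD mCherry, in the same replicate order. It had 372, 294 and 1172 CPM in HFD Tert and 548, 749 and 639 CPM in HFD TertCi. All 3 HFD mCherry libraries lay above the 3 SD mCherry libraries, by a margin of 673 against 651 CPM at the closest pair. H2-Eb1, the I-E beta chain, had 377, 416 and 254 CPM in SD mCherry and 484, 1081 and 791 CPM in HFD mCherry. It had 252, 193 and 723 CPM in HFD Tert and 403, 457 and 431 CPM in HFD TertCi. For H2-Eb1 the HFD mCherry libraries did not overlap those of SD mCherry or HFD TertCi, and HFD Tert 27 lay among them.

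H2-Ea-ps, the gene of the I-E alpha chain, annotated as a polymorphic pseudogene, had 1 count in SD mCherry 1 and 0 in the other 11 libraries. A count of 0 allowed up to 0.145 to 0.193 CPM (3 counts, counting error only). H2-Eb1 was thus expressed in libraries in which the gene of its usual partner was at or under that limit.

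Cd74 (chr18:60803848-60812652, plus strand) had 921, 1442 and 558 CPM in SD mCherry and 1156, 2782 and 2106 CPM in HFD mCherry. It had 685, 524 and 1684 CPM in HFD Tert and 956, 1137 and 1153 CPM in HFD TertCi. SD mCherry 2 lay above the lowest HFD mCherry library, and the HFD TertCi libraries all lay below HFD mCherry, the closest values being 1153 and 1156 CPM.

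The editor subunits were less abundant than the surface chains in every library. H2-DMa had 25.8, 47.4 and 18.7 CPM in SD mCherry, 33.4, 49.7 and 39.4 CPM in HFD mCherry, 15.3, 10.4 and 40.3 CPM with Tert and 17.2, 24.0 and 29.0 CPM with TertCi. SD mCherry 2 was close to the highest library, and the 3 HFD TertCi values lay under all 3 HFD mCherry values. H2-DMb1 had 34.8, 57.1 and 19.2 CPM in SD mCherry, 39.1, 75.1 and 60.7 CPM in HFD mCherry, 20.2, 19.8 and 68.7 CPM with Tert and 31, 52.2 and 35 CPM with TertCi. Its groups overlapped in every comparison.

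Ciita, the coactivator that sets class II transcription, had 6.47, 5.48 and 0.348 CPM in SD mCherry and 6.08, 15.3 and 12.5 CPM in HFD mCherry. It had 2.39, 0.374 and 4.52 CPM in HFD Tert and 3.06, 3.15 and 3.86 CPM in HFD TertCi. These values rest on 6 to 255 counts, the fewest being 6 in SD mCherry 3 and 7 in HFD Tert 26. All 6 libraries with a Tert or TertCi allele lay below the 3 HFD mCherry libraries.

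**Figure D1:**
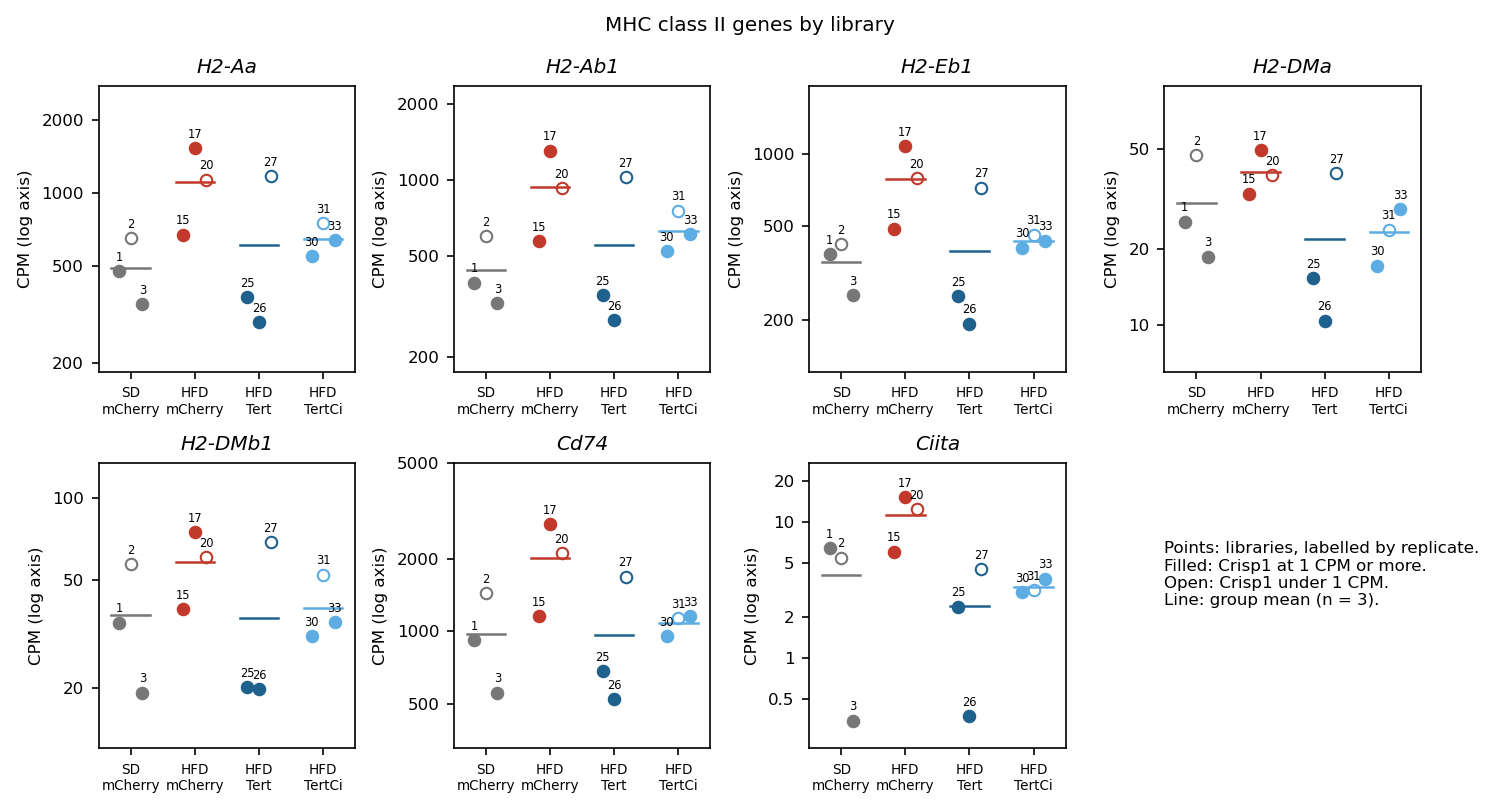
CPM (log axis) of each class II gene in the 12 libraries, by group; points are labelled with the replicate number, lines are group means (n = 3) and open points are the 4 libraries with Crisp1 under 1 CPM. HFD mCherry 17 is the highest point in every panel, and HFD Tert 27 lies well above the other 2 HFD Tert libraries for the surface chains.

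The first comparison asked how the high-fat diet changed expression in p21+/mcherry mice. All 7 genes had higher fitted levels in HFD mCherry than in SD mCherry, and none passed the test. The log2 fold changes were 1.18 ± 0.51 for H2-Aa, 1.09 ± 0.49 for H2-Ab1, 1.17 ± 0.47 for H2-Eb1, 1.05 ± 0.50 for Cd74 and 1.46 ± 0.93 for Ciita (edgeR, ± SE). They were smaller for the editor subunits, at 0.41 ± 0.49 for H2-DMa and 0.65 ± 0.53 for H2-DMb1. Their median was 1.09, against -0.08 over all genes tested, of which 45.9% were above 0. In bulk RNA, more cells of a type and more RNA per cell cannot be told apart.

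By edgeR's quasi-likelihood test with Benjamini-Hochberg adjustment, 0 of 7 members were called, while 0.0479% of all genes were. The adjusted p ran from 0.175 for H2-Eb1 to 0.607 for H2-DMa. At an unadjusted p under 0.05 there were 2 members, H2-Aa and H2-Eb1, against 24.1% of all genes. The same 2 genes were the members without overlap between the groups, where 13.9% of all genes were higher without overlap. DESeq2 called 0 of 7 (12.4% of all genes), and limma-voom called 0 of 7 and 0 genes in all. The values of 3 genes moved by over 1.5 times. H2-DMa was at 0.88 without SD mCherry 2, 0.16 without SD mCherry 3 and 0.25 without HFD mCherry 17, and at 0.89 with only the 8 libraries with Crisp1, 0.23 with the epithelial covariate and 0.18 with unscaled library sizes. H2-DMb1 was at 1.11, 0.34, 0.43, 1.07, 0.37 and 0.40 under the same settings in that order, and Ciita was at 0.92 without SD mCherry 3.

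The macrophage list (10 genes, among them Adgre1, Cd68, Csf1r and the C1q genes) moved with this comparison. Its summed level ranged from 1107 to 1247 CPM in SD mCherry and from 2468 to 6177 CPM in HFD mCherry, and no member of the list was at 0 in any library. All 10 genes had higher fitted levels, 0 were called by edgeR and 9 by DESeq2 (12.4% of all genes). The leukocyte marker Ptprc ranged from 18.4 to 36.6 CPM and from 74.2 to 195 CPM in these groups, and the summed dendritic cell list (9 genes) from 70.1 to 145 CPM and from 180 to 610 CPM. Within that list Itgax, which adipose macrophages also express, ranged from 6.57 to 10.7 CPM and from 45.4 to 326 CPM. Of the 9 genes, 8 had higher fitted levels and 1, Batf3, a lower one. The B cell list (5 genes) was low, from 4.23 to 14.5 CPM and from 11.9 to 21.2 CPM, and none of its genes was at 0 in these groups. Of these genes 4 had higher fitted levels and 1, Pax5, a lower one (1.02 to 1.39 CPM and 0.221 to 0.722 CPM). The T cell list (6 genes) ranged from 7.18 to 8.60 CPM and from 6.24 to 12.8 CPM. The endothelial list (5 genes) ranged from 416 to 627 CPM and from 807 to 1489 CPM, and 4 neutrophil genes summed to 3.05 to 6.82 CPM and 11.4 to 20 CPM, both without overlap. Mesothelial genes (4) were lower, with 400 to 1062 CPM in SD mCherry and 147 to 253 CPM in HFD mCherry. Pdgfra ranged from 84.5 to 137 CPM in SD mCherry and from 198 to 232 CPM in HFD mCherry (log2 fold change 1.03 ± 0.22, edgeR adjusted p = 0.0659). The part of these cells in the class II values was not tested.

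The next comparisons asked what p21 promoter-driven Tert and TertCi changed on the high-fat diet. All 7 genes had lower fitted levels in HFD Tert than in HFD mCherry, and none passed the test. The log2 fold changes were -2.22 ± 0.96 for Ciita, -1.06 ± 0.50 for Cd74, -1.01 ± 0.47 for H2-Eb1, -0.89 ± 0.49 for H2-DMa, -0.86 ± 0.51 for H2-Aa, -0.76 ± 0.49 for H2-Ab1 and -0.69 ± 0.53 for H2-DMb1. Their median was -0.89, against -0.05 over all genes, of which 53.8% were below 0. The edgeR test called 0 of 7 members and 0 genes in all (0%), with adjusted p from 0.288 for Ciita to 0.529 for H2-DMb1. Ciita alone had an unadjusted p under 0.05, as did 16.4% of all genes, and it alone was lower without overlap, as were 11.1%. DESeq2 called 0 of 7 (5.07% of all genes) and limma-voom 0 of 7.

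The HFD Tert values moved by over 1.5 times in 6 of the 7 genes when HFD Tert 27 was left out. Without HFD Tert 27 the log2 fold changes were -1.74 for H2-Aa, -1.57 for H2-Ab1, -1.82 for H2-Eb1, -1.66 for H2-DMa, -1.54 for H2-DMb1, -1.74 for Cd74 and -3.03 for Ciita, and still none was called. Only the 8 libraries with Crisp1 gave like values, from -1.51 for H2-DMb1 to -1.81 for H2-Eb1 among the 6 genes other than Ciita. Without HFD Tert 26 the value was -0.53 for H2-Aa, -0.45 for H2-Ab1, -0.56 for H2-DMa and -0.40 for H2-DMb1. Without HFD Tert 25 it was -0.40 for H2-DMb1, and without HFD mCherry 17 it was -0.56 for H2-Aa and -0.44 for H2-Ab1. With the mean log2 CPM of 8 epithelial genes, Crisp1 among them, as a covariate, Cd74 was called (log2 fold change -1.22, edgeR adjusted p = 0.0433), as were 849 genes in all. Over its alternatives the adjusted p of Cd74 ran from 0.0433 to 0.666.

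All 7 genes also had lower fitted levels in HFD TertCi than in HFD mCherry, again without passing the test. The log2 fold changes were -1.75 ± 0.94 for Ciita, -0.90 ± 0.50 for Cd74, -0.87 ± 0.47 for H2-Eb1, -0.80 ± 0.49 for H2-DMa, -0.78 ± 0.51 for H2-Aa and -0.57 for both H2-Ab1 and H2-DMb1. The median was -0.80, against -0.04 over all genes, of which 52.6% were below 0. The edgeR test called 0 of 7 members (0.0120% of all genes), with a lowest adjusted p of 0.414, and 0 of 7 had an unadjusted p under 0.05 (14.7% of all genes). H2-Eb1, H2-DMa, Cd74 and Ciita were lower without overlap, 4 of 7, where 12% of all genes were. For Cd74 the closest values were 1153 and 1156 CPM. H2-Eb1 and Cd74 both followed H2-Ab1 closely across the libraries, so the 4 are not independent counts. DESeq2 called 0 of 7 (4.09%) and limma-voom 0 of 7. Without HFD mCherry 17 the value for H2-Ab1 was -0.25, for H2-Aa -0.48, for H2-Eb1 -0.57, for Cd74 -0.59 and for H2-DMb1 -0.34.

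The active and the inactive form of Tert were compared directly. The log2 fold changes of HFD Tert against HFD TertCi lay between -0.47 ± 0.93 for Ciita and -0.08 ± 0.50 for H2-Aa. The edgeR adjusted p was 1 for all 7, 0 of 7 had an unadjusted p under 0.05 (1.36% of all genes), and none was without overlap (2.55% higher and 2.58% lower among all genes). Below 0 were 51.7% of all genes. DESeq2 (0.0539% of all genes) and limma-voom each called 0 of 7. The SEs, from 0.47 for H2-Eb1 to 0.93 for Ciita, were larger than the differences, so differences of this size were not detectable with these libraries. Leaving out HFD Tert 25 or 26, or HFD TertCi 31 or 33, turned the sign of at least 1 member, and without HFD Tert 27 the values lay between -1.28 and -0.84.

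**Figure D2:**
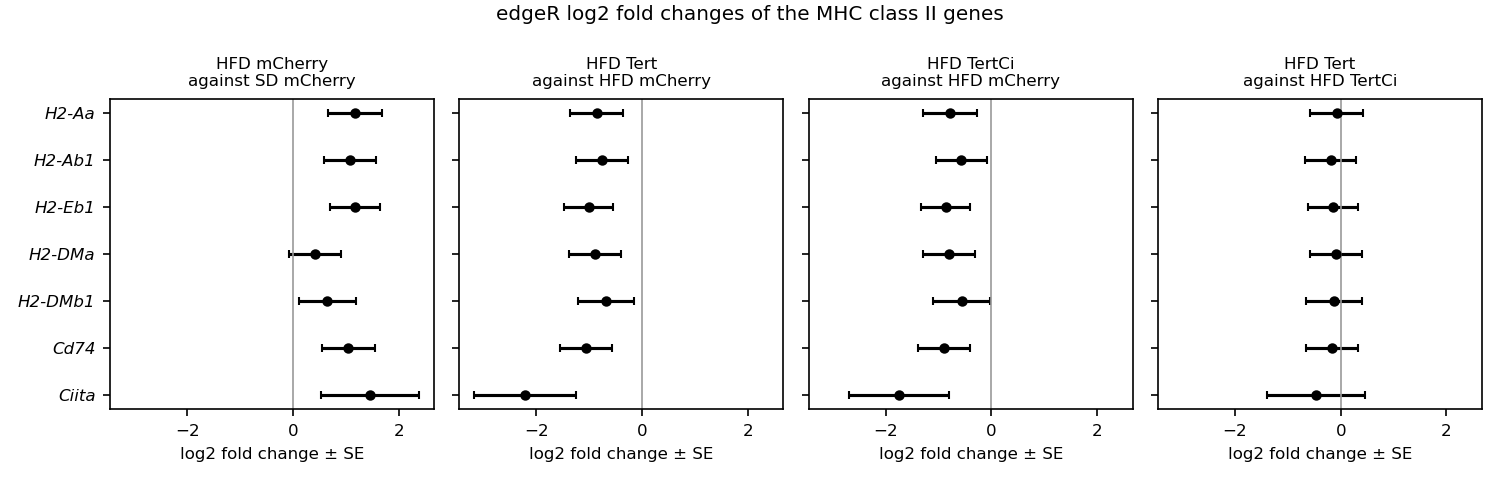
Fitted log2 fold changes (points) with their SE (bars) for the 7 class II genes in 4 comparisons; the grey line is no change. All points lie above 0 for the diet and below 0 for both forms of Tert, and none passes the adjusted threshold.

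The mean of both Tert groups against HFD mCherry used 6 libraries against 3. The log2 fold changes were -1.98 ± 0.76 for Ciita, -0.98 ± 0.42 for Cd74, -0.94 ± 0.39 for H2-Eb1, -0.85 ± 0.41 for H2-DMa, -0.82 ± 0.43 for H2-Aa, -0.66 ± 0.41 for H2-Ab1 and -0.63 ± 0.45 for H2-DMb1. The edgeR test called 0 of 7 members (0.168% of all genes), with adjusted p from 0.178 for Ciita to 0.444 for H2-DMb1. Ciita, Cd74 and H2-Eb1 had an unadjusted p under 0.05 (21% of all genes), and Ciita alone was lower without overlap (7.03%). DESeq2 called 0 of 7 (9.23%) and limma-voom 0 of 7 (0.0718%). This comparison shares the HFD mCherry libraries with the diet comparison, so the opposite signs of both are not independent of each other.

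The calls over both Tert groups changed with 2 settings. With the epithelial genes as a covariate, 3 members fell: H2-Aa by 0.86 (edgeR adjusted p = 0.0479), H2-Eb1 by 0.96 (0.0410) and Cd74 by 0.96 (0.0361), among 1567 genes called in all. Without HFD Tert 27, H2-Eb1 fell by 1.34 on the log2 scale (edgeR adjusted p = 0.0350). The log2 fold changes of H2-Aa, H2-Ab1 and H2-DMb1 were -1.26, -1.07 and -1.06 without HFD Tert 27, -0.52, -0.35 and -0.40 without HFD mCherry 17, and -1.30, -1.14 and -1.15 with only the 8 libraries with Crisp1. Over all alternatives the adjusted p ran from 0.0479 to 0.638 for H2-Aa, from 0.0350 to 0.516 for H2-Eb1 and from 0.0361 to 0.518 for Cd74. The F-test for any difference among the 4 groups called 0 of 7 members (0.0120% of all genes), 0 had an unadjusted p under 0.05 (20.2%), and DESeq2 (13.8%) and limma-voom also called 0.

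The macrophage list ranged from 927 to 2443 CPM in HFD Tert and from 1177 to 1750 CPM in HFD TertCi, all under the lowest HFD mCherry library. All 10 of its genes had lower fitted levels with both forms of Tert, and edgeR called 0. DESeq2 called 8 of the 10 for HFD Tert (5.07% of all genes), 6 for HFD TertCi (4.09%) and 9 over both groups (9.23%). Ptprc ranged from 20.1 to 92.5 CPM in HFD Tert and from 35.7 to 55.0 CPM in HFD TertCi, and the dendritic cell list from 82.2 to 296 CPM and from 136 to 266 CPM. The B cell list ranged from 9.34 to 19.5 CPM and from 12.4 to 27.3 CPM, with Ms4a1 at 0 in HFD TertCi 31. Its fitted levels were higher in 1 of 5 genes for HFD Tert and in 3 of 5 for HFD TertCi, and DESeq2 called 1 in each. Pax5 had 1.55 to 3.79 CPM with Tert and 2.76 to 4.69 CPM with TertCi. In HFD mCherry it had 0.221 to 0.722 CPM, on 4 to 12 counts. The endothelial list, at 1099 to 2222 CPM and 945 to 2217 CPM, overlapped HFD mCherry in both groups. The neutrophil genes summed to 2.80 to 10.9 CPM in HFD Tert, below HFD mCherry, and to 6.53 to 11.6 CPM in HFD TertCi, which overlapped it. The mesothelial list, at 522 to 1295 CPM in HFD Tert and 577 to 732 CPM in HFD TertCi, lay above HFD mCherry. Pdgfra was the 1 gene of the marker lists that edgeR called. It had 61.3 to 89.6 CPM in HFD Tert and 56.7 to 64.3 CPM in HFD TertCi, against 198 to 232 CPM in HFD mCherry, with log2 fold changes of -1.55 ± 0.22 (edgeR adjusted p = 0.123), -1.84 ± 0.22 (0.0426) and, over both groups, -1.70 ± 0.18 (0.0119). The summed progenitor list (5 genes) ranged from 871 to 1437 CPM and from 789 to 1264 CPM, and from 835 to 1616 CPM in HFD mCherry. The part of these cells in the lower class II values was not tested.

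Members were also set against leukocyte markers within each library. H2-Ab1 per unit of Ptprc was 6.69 ± 1.05 in HFD mCherry, 15.4 ± 4.06 in SD mCherry, 12.6 ± 1.43 with Tert and 14.2 ± 0.50 with TertCi (SD, n = 3 each). The HFD mCherry libraries, at 5.64 to 7.74, lay below all 9 others, which ran from 10.8 to 17.8. Against the summed macrophage list the ratio was 0.186 to 0.233 in HFD mCherry, 0.296 to 0.482 in SD mCherry, 0.302 to 0.421 with Tert and 0.432 to 0.446 with TertCi, again without overlap. HFD mCherry thus had the highest mean H2-Ab1 level and the lowest ratios. H2-Aa, H2-Eb1, H2-DMb1 and Cd74 showed the same, so that HFD mCherry lay below the other 9 libraries for 5 of 7 members, by Ptprc and by the macrophage list. H2-DMa and Ciita did not: Ciita per Ptprc was 0.0763 to 0.0818 in HFD mCherry, among the values of SD mCherry (0.0189 to 0.177), HFD Tert (0.0186 to 0.0861) and HFD TertCi (0.0573 to 0.0895). Ptprc itself rose more for the diet (log2 fold change 2.29) than any class II gene (at most 1.46). Such a ratio falls for every gene that rises less than its denominator. The share of all genes below the other 9 libraries by these ratios was not computed, so the 5 of 7 is a description. With Lyz2, Cd68 and the C1q genes left out of the macrophage list, H2-Ab1 in HFD mCherry (0.555 to 0.636) overlapped SD mCherry (0.506 to 1.15) and HFD Tert (0.486 to 1.23). Cd14 made up most of that shortened list, with a mean of 502 CPM in SD mCherry and 1165 CPM in HFD mCherry. Csf1r, the next most abundant, averaged 49.7 and 238 CPM.

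Per summed dendritic cell list (9 genes), H2-Ab1 was 4.04 to 4.67 in SD mCherry, above all 9 high-fat libraries. It was 1.52 to 3.18 in HFD mCherry, which overlapped the values with Tert (2.93 to 3.47) and with TertCi (2.84 to 3.90). Without Itgax, which adipose macrophages also express and which ranged from 4.11 to 326 CPM, H2-Ab1 was 4.33 to 5.51 times the summed list in SD mCherry. It was 3.27 to 4.66 times the list in HFD mCherry, 3.11 to 4.43 with Tert and 3.47 to 4.22 with TertCi. Without Itgax SD mCherry overlapped HFD mCherry and HFD Tert, and lay above HFD TertCi. Both dendritic cell denominators were chosen after the data had been seen, and the ratios are descriptions of bulk RNA with no test.

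**Figure D3:**
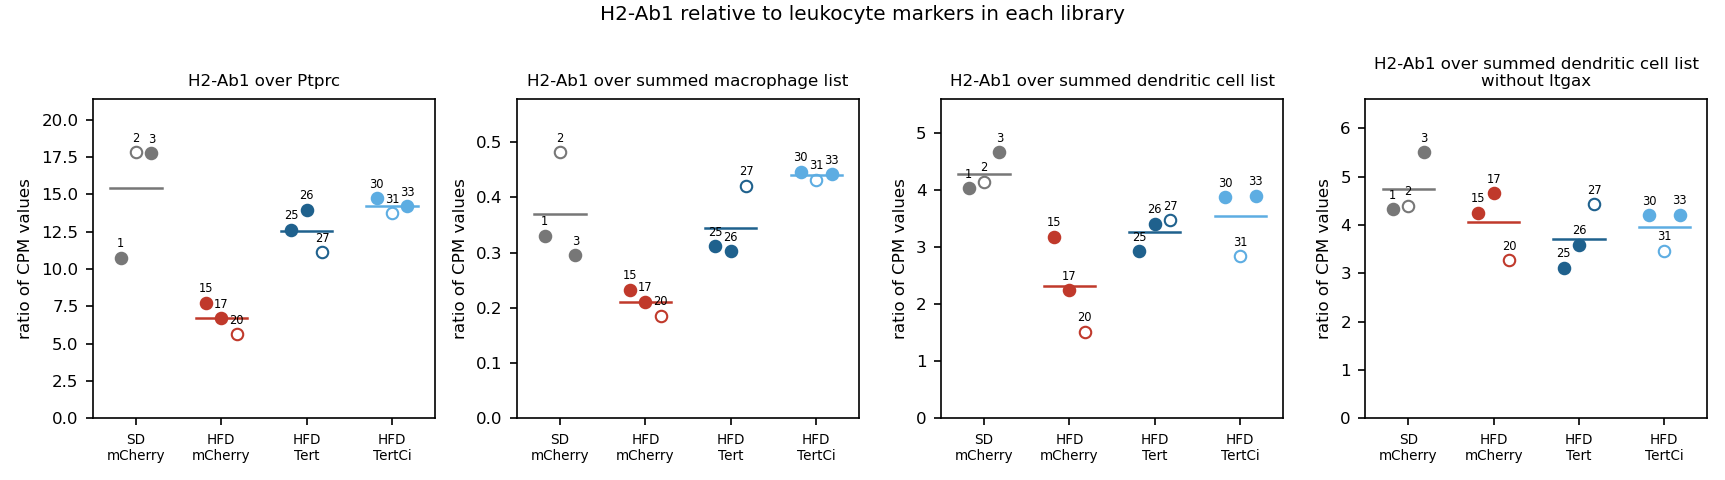
H2-Ab1 CPM divided by Ptprc, by the summed macrophage list and by the summed dendritic cell list with and without Itgax in each library (axes from 0; lines are group means, n = 3; numbers are replicates; open points have Crisp1 under 1 CPM). HFD mCherry lies below the 9 other libraries for Ptprc and the macrophage list, SD mCherry lies above the 9 others for the whole dendritic cell list, and overlaps HFD mCherry and HFD Tert without Itgax.

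Within the family, the proportions of the members also differed between groups. Ciita per 1000 CPM of H2-Ab1 was 10.6 to 13.5 in HFD mCherry, 1.33 to 6.82 with Tert and 4.17 to 6.30 with TertCi, so both Tert groups lay below the control. In SD mCherry it ran from 1.06 to 16.4, the whole range of the study. H2-Eb1 per unit of H2-Ab1 was 0.828 to 0.853 in HFD mCherry, 0.687 to 0.717 with Tert and 0.604 to 0.768 with TertCi, and SD mCherry spanned 0.693 to 0.959. Cd74 per unit of H2-Ab1 was 2.01 to 2.27 in HFD mCherry, 1.64 to 1.95 with Tert and 1.5 to 1.88 with TertCi, with SD mCherry at 1.70 to 2.40. H2-Aa per unit of H2-Ab1 was 1.17 to 1.22 in HFD mCherry, 1.05 to 1.14 with Tert and 0.991 to 1.04 with TertCi, with SD mCherry at 1.06 to 1.21. HFD mCherry thus had more Ciita, H2-Eb1, Cd74 and H2-Aa per H2-Ab1 than either Tert group, without overlap. The closest values were 1.17 and 1.14 for H2-Aa and 2.01 and 1.95 for Cd74. The share of all genes that separated in this way was not computed. These 4 ratios share H2-Ab1 as their denominator and are not independent of each other.

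H2-DMa showed another order. It was 57.2 to 79.0 per 1000 CPM of H2-Ab1 in SD mCherry, 38.1 to 58.1 in HFD mCherry, 37.1 to 43.7 with Tert and 31.7 to 47.3 with TertCi. The standard diet had the highest values, and HFD mCherry 15 was the only high-fat library that reached them. H2-DMb1 overlapped in all 4 groups, from 57.1 to 95.1 per 1000 CPM of H2-Ab1. These proportions were compared with no test.

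**Figure D4:**
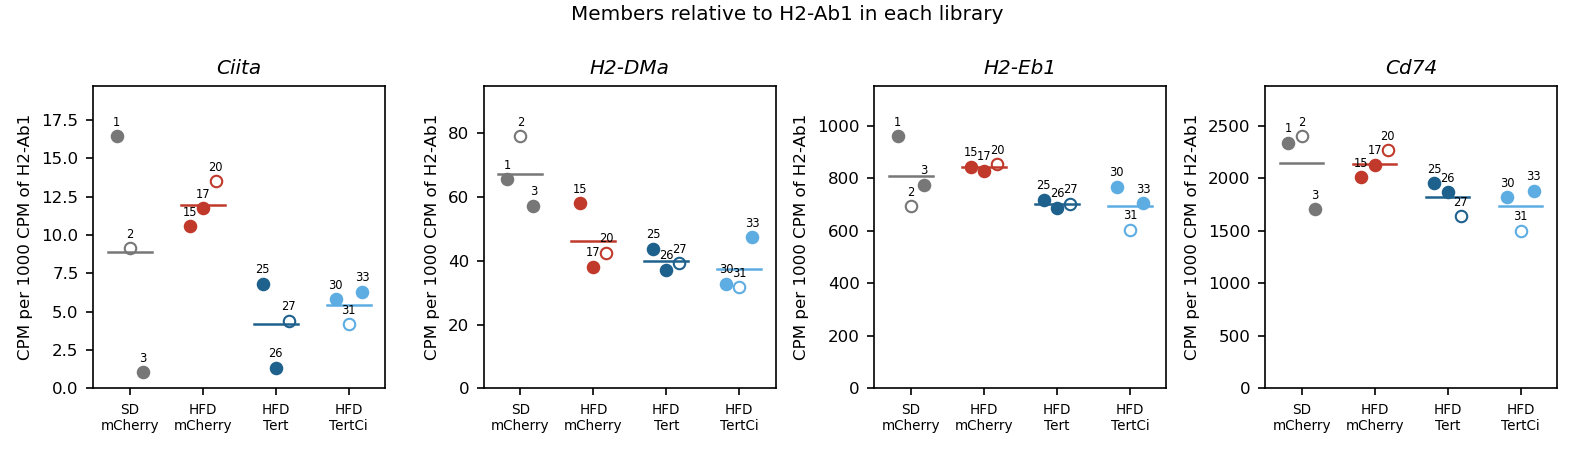
CPM of Ciita, H2-DMa, H2-Eb1 and Cd74 per 1000 CPM of H2-Ab1 in each library (axes from 0; lines are group means, n = 3; numbers are replicates; open points have Crisp1 under 1 CPM). HFD mCherry lies above both Tert groups for Ciita, H2-Eb1 and Cd74, and SD mCherry spans much of the range.

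Levels were also compared within groups between the library without Crisp1 and the 2 with it. H2-Ab1 was 1028 CPM in HFD Tert without Crisp1 and averaged 316 CPM in the 2 libraries with it. In SD mCherry it was 601 and 360 CPM, in HFD TertCi 756 and 569 CPM and in HFD mCherry 928 and 940 CPM, respectively. Cd74 followed with 1684 and 605 CPM in HFD Tert, 1442 and 739 CPM in SD mCherry, 1137 and 1055 CPM in HFD TertCi and 2106 and 1969 CPM in HFD mCherry. H2-DMa was 40.3 and 12.9 CPM in HFD Tert, 47.4 and 22.2 CPM in SD mCherry, 24.0 and 23.1 CPM in HFD TertCi and 39.4 and 41.5 CPM in HFD mCherry. The library without Crisp1 was thus the highest of its group for H2-Aa, H2-Ab1, H2-Eb1, H2-DMa, H2-DMb1 and Cd74 in HFD Tert and SD mCherry. In HFD TertCi it was the highest for H2-Aa, H2-Ab1, H2-Eb1 and H2-DMb1, and lay between the other 2 for Cd74 and H2-DMa. In HFD mCherry it lay between the other 2. The summed epithelial list ranged from 3989 to 54739 CPM in SD mCherry and from 56.2 to 33803 CPM on the high-fat diet.

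H2-Aa was, of 15302 genes with a mean level of 1 CPM or more, the closest to H2-Ab1, with an SD of 0.0986 of the log2 ratio over the 12 libraries. H2-Eb1 (0.180) and Cd74 (0.209) ranked 2 and 3, H2-DMb1 (0.241) ranked 6, H2-DMa (0.409) ranked 264 and Ciita (1.12) ranked 10992. Outside the members the closest were 2310022A10Rik (0.215), Samsn1 (0.232), Rilpl2 (0.245), Cytip (0.262), Snx20 (0.264), Lyn (0.266), Atp6v1a (0.269), Cd86 (0.273), Yy2 (0.277) and Epsti1 (0.284). Cd86 is a costimulatory ligand of antigen-presenting cells and Lyn a kinase of myeloid and B cells. Their mean levels ran from 5.77 CPM for Yy2 to 262 CPM for Atp6v1a. All libraries share 1 scaling, so this is a description of likeness and not a test.

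The other class II chains and editing partners were less abundant. H2-DMb2 had 6.31, 11.9 and 4.92 CPM in SD mCherry, 15.6, 3.61 and 3.88 CPM in HFD mCherry, 1.17, 1.49 and 3.06 CPM with Tert and 3.26, 2.38 and 2.31 CPM with TertCi. HFD mCherry 15 was far above the other 2 libraries of its group, and all 6 libraries with a Tert or TertCi allele lay below HFD mCherry. H2-DMb2 was the partner gene that DESeq2 called, in HFD Tert (log2 fold change -2.01, adjusted p = 0.0476 by DESeq2) and over both Tert groups (-1.77, 0.0271), where edgeR's adjusted p was 0.219 and 0.108. Among all genes, DESeq2 called 5.07% for HFD Tert and 9.23% over both Tert groups, where 7.03% were lower without overlap. Of the 4 partners tested, which include H2-Oa, H2-Ob and H2-Eb2, edgeR called 0 in any comparison.

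The antigen processing genes had a median further from 0 than the members in both comparisons. Ctss, which trims the invariant chain, had 38.3, 36.3 and 53.9 CPM in SD mCherry, 138, 525 and 385 CPM in HFD mCherry, 34.3, 27 and 234 CPM with Tert and 63.9, 134 and 69.8 CPM with TertCi. Ifi30, a lysosomal thiol reductase, had 45.8, 47.4 and 43.3 CPM in SD mCherry, 83.2, 152 and 134 CPM in HFD mCherry, 38.0, 29.6 and 57.5 CPM with Tert and 53.5, 58.8 and 45.9 CPM with TertCi. HFD mCherry lay above all 9 other libraries for Ifi30, and above SD mCherry and HFD TertCi for Ctss.

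All 6 processing genes (Ctss, Ifi30, Lgmn, Ctsl, Ctsb and Ctsd) were higher in HFD mCherry than in SD mCherry without overlap, with log2 fold changes from 1.34 for Lgmn to 3.03 ± 0.81 for Ctss and a median of 1.61. The edgeR test called 0 of the 6 (adjusted p from 0.0659 to 0.120), 6 had an unadjusted p under 0.05, DESeq2 called 6 and limma-voom 0. Among all genes, 13.9% were higher without overlap, 24.1% had an unadjusted edgeR p under 0.05 and DESeq2 called 12.4%. Against HFD mCherry the median over both Tert groups was -1.44, the edgeR test called 0 of 6 (lowest adjusted p = 0.0508, Ifi30, log2 fold change -1.39 ± 0.23), 5 had an unadjusted p under 0.05, and DESeq2 called 5 and limma-voom 0. Over both Tert groups, 21% of all genes had an unadjusted edgeR p under 0.05, and DESeq2 called 9.23%. Ctsb, Ctsd, Ctsl and Lgmn are general lysosomal proteases of many cell types, macrophages included.

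Genes of class II turnover and costimulation had mostly the same signs as the members. March1, the ligase that ubiquitinates class II for degradation, ranged from 2.20 to 3.15 CPM in SD mCherry, 3.70 to 10.2 in HFD mCherry, 0.694 to 2.12 with Tert and 1.02 to 3.09 with TertCi. HFD mCherry lay above every other library, with log2 fold changes of 1.49 ± 0.56 for the diet (edgeR adjusted p = 0.156) and -2.20 ± 0.46 over both Tert groups (edgeR adjusted p = 0.0568; DESeq2 0.00119). Cd83, which limits March1 action on class II, was higher without overlap for the diet (1.67 ± 0.51, edgeR adjusted p = 0.102), and so were the costimulatory genes Cd86 (1.59 ± 0.49) and Cd40 (2.40 ± 0.68), with edgeR adjusted p of 0.106 and 0.0897. The edgeR test called 0 of the 3 turnover genes and 0 of the 3 costimulatory genes in any comparison. DESeq2 called Cd83 and all 3 costimulatory genes (Cd80, Cd86 and Cd40) for the diet, and March1 with both forms of Tert. Among all genes, DESeq2 called 12.4% for the diet, 5.07% for HFD Tert and 4.09% for HFD TertCi. For the diet 13.9% of all genes were higher without overlap. Lower without overlap were 11.1% of all genes for HFD Tert, 12% for HFD TertCi and 7.03% over both Tert groups.

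The genes of the proteins that bind the X and Y boxes had smaller differences than Ciita. Rfx5, the DNA-binding subunit of RFX, ranged from 28.7 to 43.9 CPM in SD mCherry, 31 to 35.6 in HFD mCherry, 30.4 to 34.0 with Tert and 27.7 to 31.8 with TertCi. Its log2 fold change was -0.19 ± 0.19 for the diet and -0.11 ± 0.16 over both Tert groups. The 7 genes of this list (Rfx5, Rfxap, Rfxank, Nfya, Nfyb, Nfyc and Creb1) had medians of -0.19 for the diet and 0.27 over both Tert groups, and edgeR and DESeq2 called 0 of 7 in either. Rfxank and Nfyc were lower without overlap for the diet (-0.38 ± 0.17 and -0.44 ± 0.23), and Rfxank and Nfyb were higher without overlap over both Tert groups (0.38 ± 0.15 and 0.61 ± 0.20). With TertCi, Rfxap was also higher without overlap (0.33 ± 0.20). For Nfyc the closest values were 19.3 CPM in SD mCherry and 19.2 CPM in HFD mCherry. The shares of all genes lower without overlap for the diet, or higher without overlap in the Tert groups, were not computed. For the diet 2 of the 7 were higher and 5 lower, and over both Tert groups 4 were higher and 3 lower. Nfya and Creb1 had the sign of the class II genes in both comparisons, with 0.68 ± 0.34 and 0.56 ± 0.30 for the diet and -0.20 ± 0.29 and -0.10 ± 0.26 over both Tert groups.

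MHC class I genes, whose products present cytosolic peptides, had a positive median in both comparisons. The 9 genes of that list (H2-K1, H2-D1, B2m, Tap1, Tap2, Tapbp, Nlrc5, Psmb8 and Psmb9) had medians of 0.29 for the diet and 0.27 over both Tert groups, and edgeR, DESeq2 and limma-voom called 0 in any comparison. Nlrc5, the class I counterpart of Ciita, averaged 22.7 ± 11.3 CPM in SD mCherry, 28.1 ± 10.3 in HFD mCherry, 31.4 ± 18.1 with Tert and 36.4 ± 5.93 with TertCi (SD, n = 3 each). Its values overlapped between HFD mCherry and both Tert groups, where Ciita did not. Psmb8 and Psmb9, immunoproteasome subunits, were higher without overlap with TertCi (0.64 ± 0.34 and 0.97 ± 0.44). For Psmb8 the closest values were 53.4 CPM in HFD mCherry and 53.5 CPM in HFD TertCi. The share of all genes higher without overlap with TertCi was not computed. Interferon gamma is an inducer of Ciita. Among genes of its signalling, the receptor chain Ifngr1 and the receptor-bound kinases Jak1 and Jak2 were higher without overlap for the diet (0.72 ± 0.27, 0.97 ± 0.31 and 1.21 ± 0.36). The edgeR test called none of these 3 (adjusted p from 0.0960 for Jak2 to 0.155 for Ifngr1), and DESeq2 called Jak1 and Jak2. For the diet, 13.9% of all genes were higher without overlap and DESeq2 called 12.4%. Ifng (-0.05 ± 1.10), Ifngr2 (0.37 ± 0.37) and Irf1 (0.06 ± 0.36) overlapped between the diets. Over both Tert groups these 6 genes ranged from -0.22 ± 0.26 for Jak1 to 0.58 ± 0.96 for Ifng, with unadjusted p from 0.258 to 0.670.

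**Figure D5:**
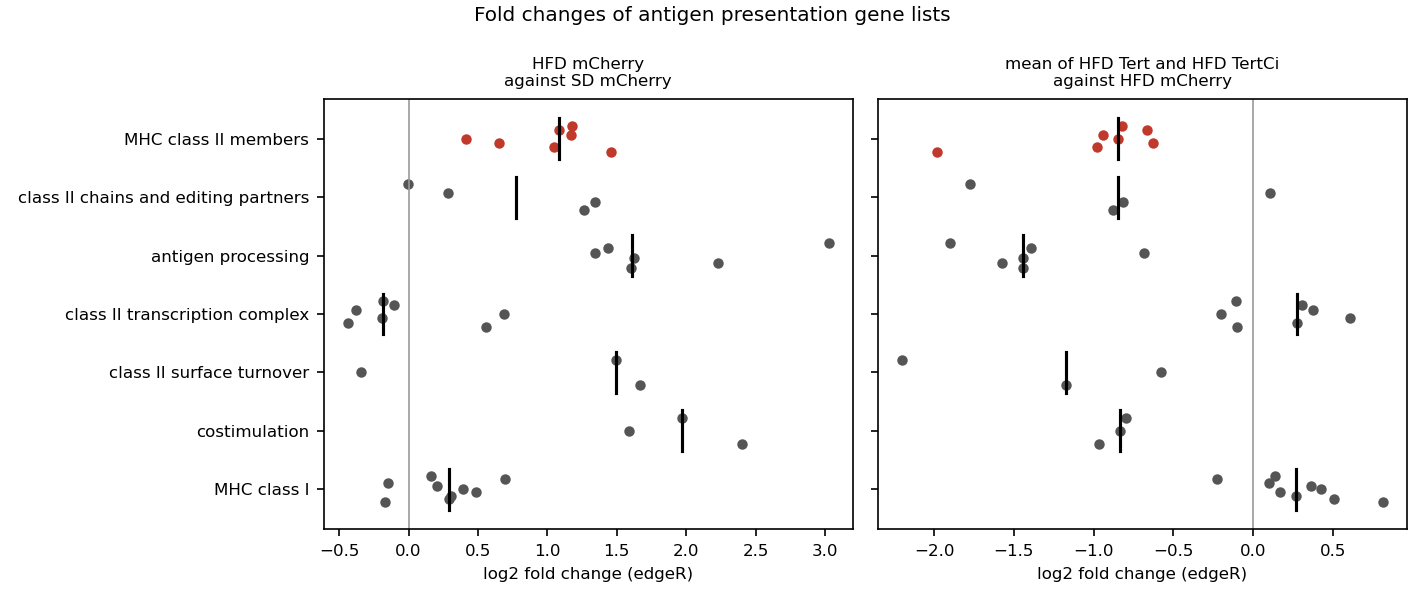
Fitted log2 fold change of every tested gene (points) in the class II members (red) and in 6 related lists (grey), with list medians (bars), for the diet (left) and for the mean of both Tert groups against HFD mCherry (right). Members, processing, turnover and costimulatory genes lie mostly above 0 on the left and below 0 on the right, while the medians of the transcription complex and class I lists lie between -0.19 and 0.29. Both panels share the HFD mCherry libraries.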

How the data were processed

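Poly-A RNA of 12 libraries was measured. The authors deposited raw counts of reads per gene. Per the submitters' processing notes, Subread, SAMtools and featureCounts 1.6.4 were used with build mm10; the annotation version and strand setting are not given in the sources used here. Replicate numbers were read from the labels.

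From the counts, CPM on TMM-scaled library sizes were computed, and edgeR 4.0.16 (R 4.3.3; quasi-likelihood test, robust, filterByExpr by group, all 12 libraries in 1 fit) was run over 16713 genes with Benjamini-Hochberg adjustment over all of them (threshold 0.05). DESeq2 1.42.0 and limma 3.58.1 (voom) were alternatives, with no filter, unscaled library sizes, only the groups compared, the mean log2 CPM of an epithelial list as a covariate, each library left out, and, chosen after the data were seen, Crisp1 as a covariate and only the 8 libraries with Crisp1. The scripts were tested on simulated data. The members and the gene lists were chosen with earlier results of these data known. All 7 members were named; a gene of the pathway lists was named where it passed a test, where groups did not overlap or where its level was the point, and the 10 genes closest to H2-Ab1 by the SD of the log2 ratio were named. Lengths came from GENCODE exons of GRCm38. The summary of the interferon gamma list is not reported here.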

Additional observations from a re-analysis of the deposited data

How the results depend on the processing

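No paired analysis was possible because no replicate number occurs in more than 1 group. The count of members called was 0 in every comparison under unscaled library sizes, no filter, DESeq2, limma-voom, only the groups compared (not run for the F-test) and both Crisp1 alternatives, and in the other comparisons with the epithelial covariate. With the epithelial covariate it was 1 for HFD Tert and 3 over both Tert groups against HFD mCherry, and the cause was not tested. Leaving out each library gave 0 to 1 for both Tert groups and 0 otherwise. Log2 fold changes of the members kept their sign, apart from HFD Tert against HFD TertCi, where leaving out 1 library turned it: the ranges were -0.95 to 0.25 (H2-Aa), -0.998 to 0.118 (H2-Ab1), -0.95 to 0.17 (H2-Eb1), -0.86 to 0.24 (H2-DMa), -0.98 to 0.17 (H2-DMb1), -0.84 to 0.12 (Cd74) and -1.28 to 0.034 (Ciita). Unscaled library sizes moved the median of all genes by -0.20 (diet), 0.08 (HFD Tert) and 0.10 (HFD TertCi).

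The log2 difference in H2-Ab1 per summed macrophage list was -0.79 for the diet, 0.71 for HFD Tert, 1.07 for HFD TertCi, -0.37 for HFD Tert against HFD TertCi and 0.89 for both Tert groups. With other denominators, 18 values differed from these by more than the pooled SD within groups and are given here, and 7 did not. Per Ptprc the diet value was -1.18. With the shortened macrophage list the diet, HFD Tert, HFD TertCi and pooled values were -0.28, 0.23, 0.54 and 0.39. Per Cd68 all 5 values were -2.28, 2.40, 2.43, -0.035 and 2.41, and per dendritic cell list without Itgax -0.23, -0.13, -0.026, -0.10 and -0.078, and per whole dendritic cell list the HFD TertCi, Tert against TertCi and pooled values were 0.66, -0.10 and 0.61, all chosen after the data were seen; the cause was not tested. Per whole dendritic cell list the mean log2 ratio of H2-Ab1 was 2.10 in SD mCherry, 1.15 in HFD mCherry and 1.70 in HFD Tert. Totals of 16430330 to 19486965 counts left Ciita with 6 counts in SD mCherry 3, so its ratios are the least precise.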

Other observations

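The pair CTNGNAAC and TGATTGG, searched after the member sequences had been seen, also lay within 40 bases of each other in promoter windows of H2-Ob, a class II editing partner, and Rfx5, the DNA-binding subunit of the complex that reads the X box. H2-Ob had 2.66 to 6.21 CPM in SD mCherry and 5.52 to 13.9 CPM in HFD mCherry, and its log2 fold change for the diet was 1.34 ± 0.52 (edgeR adjusted p = 0.163). The 31 windows with the pair also included those of Plk1, a mitotic kinase, and Dnmt1, a DNA methyltransferase.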
